A study of Mus musculus with 20 samples.

Results

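The 10 genes described here carry lipid into myeloid cells, store it and send it out again: the nuclear receptor genes Nr1h3 and Pparg, the sterol transporter genes Abca1 and Abcg1, the apolipoprotein gene Apoe, the lipase gene Lpl, the receptor genes Cd36 and Msr1, the fatty acid carrier gene Fabp5 and the lipid droplet gene Plin2. They were chosen by symbol, with earlier results of these data known. They were matched by Entrez gene ID, and all 10 were among the 23090 genes counted in each library. RNA of tumour-associated myeloid cells was sequenced in 20 libraries of 4 groups: gMDSC under CBPi, gMDSC in vehicle, mMDSC under CBPi and mMDSC in vehicle, with 5 libraries each. CBPi stands for GNE-781, which blocks the bromodomains of CBP and EP300, a pair of histone acetyltransferases, and was given at 25 mg/kg BID by oral gavage for 7 days, and the vehicle was MCT. All mice were female SCID.beige animals of 6 to 8 weeks, which lack T cells, B cells and functional NK cells, and all bore subcutaneous tumours grown from injected MDA.MB.231-X1.1 or CT26 cells, a human breast cancer derivative and a mouse colon carcinoma line. Dosing began at a mean tumour volume of 150 to 200 mm3. The labels do not give the tumour line of a library, so differences between lines and between groups cannot be told apart. Cells positive for CD45, CD11b and Ly6C and negative for F4/80 were sorted from digested tumours, the gMDSC with Ly6G and the mMDSC without it. Whether the libraries of a group came from separate mice is not labelled, so p-values measure the spread between these samples, which may be technical.

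Myeloid cells in tissue take up lipoproteins and fatty acids through scavenger receptors such as those made from Msr1 and Cd36, and use lipoprotein lipase, made from Lpl, to free fatty acids from triglyceride. Surplus lipid is esterified and kept in droplets coated by perilipin 2, the product of Plin2, while free cholesterol leaves through the transporters ABCA1 and ABCG1 to apolipoproteins such as APOE. The sterol-sensing receptor LXR alpha, made from Nr1h3, and the fatty acid-sensing receptor PPAR gamma, made from Pparg, bind DNA with a partner of the RXR family and switch on many of the same genes. CBP and EP300 are coactivators of many transcription factors, nuclear receptors among them.

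Promoters of 6 of the 10 genes were in the RefSeq table of GRCm38.p6, with 11 start sites in all. They were searched because the sites that LXR and PPAR bind are repeats of a hexamer like AGGTCA. Of these promoters 4 are shown, from genes that changed with CBPi in a cell type. Pparg and Apoe changed too, and their promoters were searched but are not shown. Each line holds the 250 bases before an annotated start, 5′ to 3′ on the gene's strand, and capitals mark a match. The lines are Abca1 at chr4:53159896-53160145, the upstream entry of Nr1h3 at chr2:91195117-91195366, Plin2 at chr4:86670060-86670309 and Cd36 at chr5:17835897-17836146, all on the minus strand.
Abca1: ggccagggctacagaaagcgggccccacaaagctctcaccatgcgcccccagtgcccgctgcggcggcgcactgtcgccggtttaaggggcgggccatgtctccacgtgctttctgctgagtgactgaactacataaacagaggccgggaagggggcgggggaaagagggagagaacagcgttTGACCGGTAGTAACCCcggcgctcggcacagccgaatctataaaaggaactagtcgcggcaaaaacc
Nr1h3: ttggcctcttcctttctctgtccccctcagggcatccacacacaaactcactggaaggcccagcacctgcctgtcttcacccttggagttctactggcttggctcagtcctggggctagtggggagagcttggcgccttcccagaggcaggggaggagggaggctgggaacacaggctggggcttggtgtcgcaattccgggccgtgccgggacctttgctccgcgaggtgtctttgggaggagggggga
Plin2: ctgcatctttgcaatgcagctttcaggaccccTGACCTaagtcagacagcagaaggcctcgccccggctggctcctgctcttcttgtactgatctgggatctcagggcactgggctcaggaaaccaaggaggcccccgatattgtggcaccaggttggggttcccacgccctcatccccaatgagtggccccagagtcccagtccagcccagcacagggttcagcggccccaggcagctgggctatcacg
Cd36: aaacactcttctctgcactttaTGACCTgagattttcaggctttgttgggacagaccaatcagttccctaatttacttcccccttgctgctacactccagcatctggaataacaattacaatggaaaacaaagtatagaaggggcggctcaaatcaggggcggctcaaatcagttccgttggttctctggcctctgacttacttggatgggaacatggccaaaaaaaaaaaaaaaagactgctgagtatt
Searched on both strands, the loose repeat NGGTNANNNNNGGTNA, with a spacer of 4 bases between its hexamers, was found in the Abca1 promoter from -67 to -52 and in no other of the 11. It was present in 204 of 32851 promoters of the same length (0.621%). The hexamer AGGTCA alone was found in the Plin2 promoter from -218 to -213, in the Cd36 promoter from -228 to -223 and in 2 of the 3 Pparg promoters, against 14.0% of all promoters. The strict repeats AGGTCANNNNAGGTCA (0.0152% of promoters) and AGGTCANAGGTCA (0.0335%), which contain that hexamer, were in none of the 11. Of these strict repeats, only the first was also searched in a loose form, the one given above. The absence of the second is thus that of its strict form alone. A match describes the letters of this window and is no measure of binding.

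Per length, the 10 genes spanned levels from near the top of the transcriptome to near its floor. On the authors' RPKM scale Apoe averaged 10674 over the 20 libraries and ranked between 1 and 19 among all genes of a library. Plin2 averaged 380.4 RPKM, Msr1 187 RPKM, Nr1h3 39.8 RPKM, Abcg1 34.9 RPKM and Lpl 26.6 RPKM. Pparg averaged 11.4 RPKM, Cd36 10.6 RPKM, Abca1 8.56 RPKM and Fabp5 2.42 RPKM. The lowest library of Apoe, at 3705 RPKM, lay above the highest of Plin2, at 621 RPKM. Every other pair of neighbours in this order overlapped over the 20 libraries, so their order is that of the means. Values below are CPM, counts divided by the library total and by a TMM scaling factor over the 20 libraries, and are compared within a gene.

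**Figure D1:**
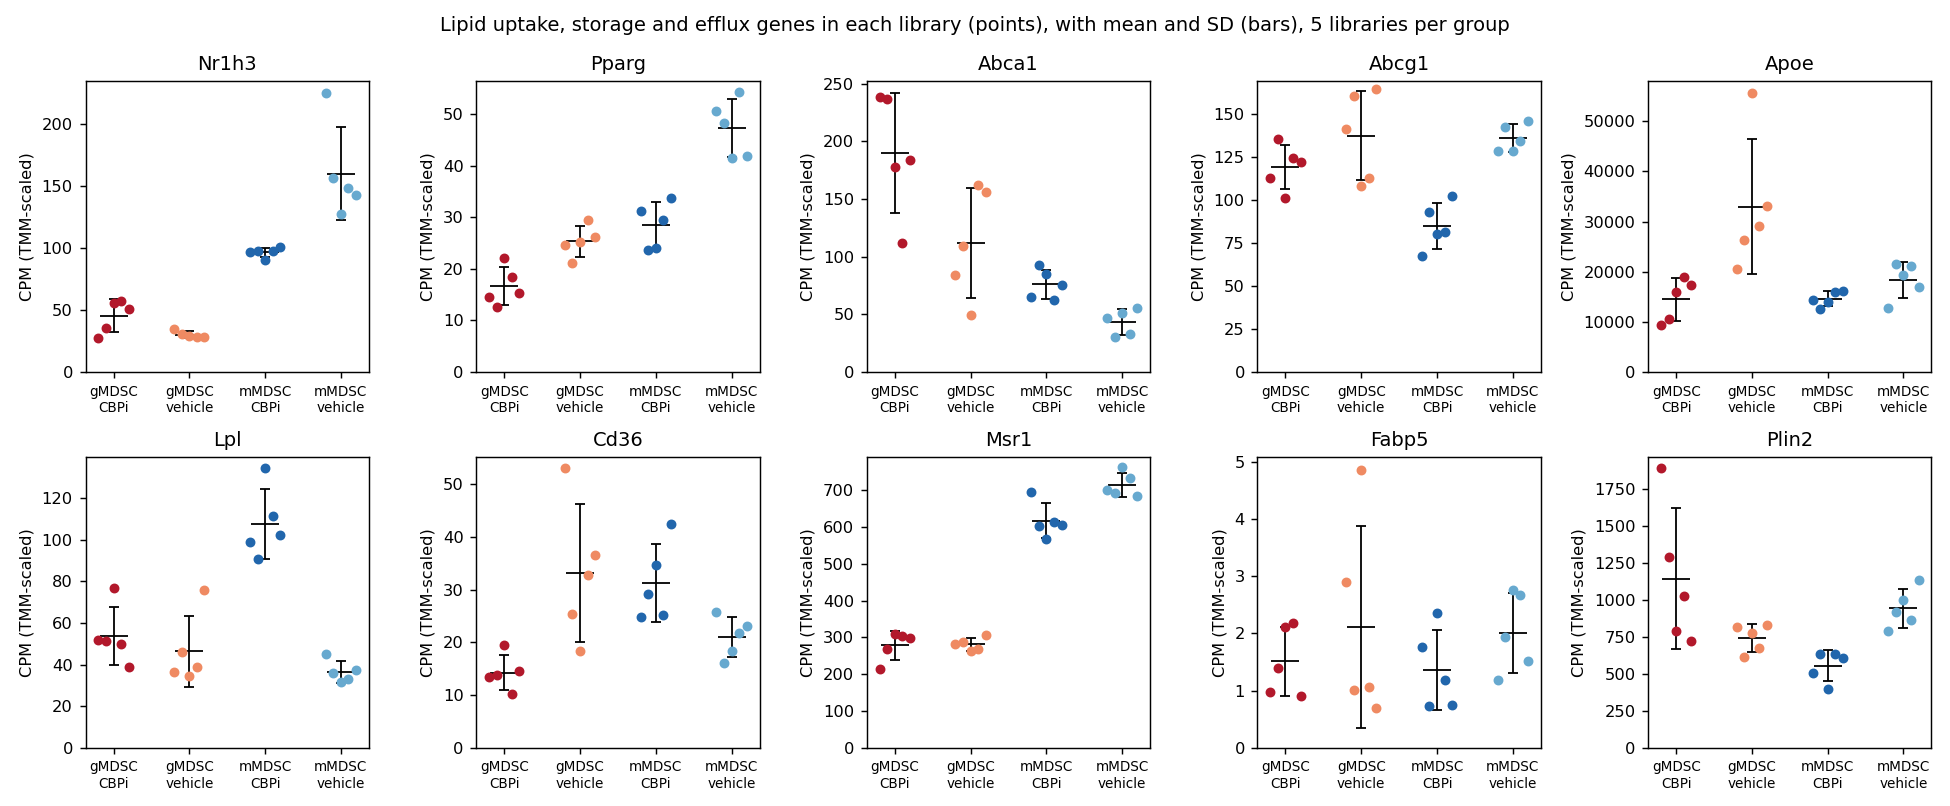
CPM (TMM-scaled, linear axis from 0) of each of the 10 genes in every library (points), by group, with the mean and SD of 5 libraries (bars). Lpl, Abca1, Abcg1, Plin2, Nr1h3 and Pparg separate the CBPi and vehicle mMDSC without overlap, and Nr1h3, Pparg and Msr1 separate vehicle gMDSC from vehicle mMDSC.

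Library totals ran from 12.4 to 26.6 mega-counts, and no pair of libraries in a group agreed within sampling noise. Vehicle gMDSC 1 to 4 were at 12.4 to 14.1 mega-counts and vehicle gMDSC 5 at 23.3, against 19.7 to 22.4 in CBPi gMDSC. In mMDSC the totals were 13.5 to 23.2 mega-counts in vehicle and 19.5 to 26.6 under CBPi. The part of depth in the results was not tested. The neutrophil receptor gene Cxcr2 averaged 816 CPM in CBPi gMDSC and 1428 CPM in vehicle gMDSC, against 1.75 CPM in CBPi mMDSC and 1.28 CPM in vehicle mMDSC, and the monocyte gene Ly6c2 ran the other way, so the lineage markers went with the labels. The sort excluded F4/80, yet its gene Adgre1 averaged 807, 1038, 538 and 839 CPM in these groups in the same order. The sum of 12 tissue macrophage markers was 6661 to 12726 CPM in CBPi gMDSC against 13071 to 21980 CPM in vehicle gMDSC, and 6227 to 8353 CPM in CBPi mMDSC against 8616 to 10813 CPM in vehicle mMDSC. It was thus lower under CBPi without overlap in both cell types. Of these markers 2 of 10 tested fell in gMDSC (Ms4a7 and Trem2), and in mMDSC 5 of 11 fell (Gpnmb, Timd4, Ms4a7, Adgre1 and C1qc) and Mrc1 rose. Over all genes tested, 4.18% rose and 5.52% fell in gMDSC, and 3.02% rose and 5.54% fell in mMDSC (adjusted p under 0.05). These shares stand beside each count of markers with CBPi in this paragraph. Summed dendritic cell markers were also lower under CBPi without overlap, at 236 to 350.2 CPM in CBPi gMDSC against 449 to 655 CPM in vehicle gMDSC, and at 196 to 259 CPM in CBPi mMDSC against 339 to 531 CPM in vehicle mMDSC. Of the single dendritic cell markers, Itgax alone fell, 1 of 5 tested in gMDSC, where Ccr7 rose, and 1 of 6 in mMDSC. The median log2 fold change of this list was above 0, at 0.31 in gMDSC and 0.39 in mMDSC, so the lower sum does not describe most of its genes. Summed epithelial markers were at 7.55 to 12.6 CPM in CBPi gMDSC against 25.7 to 60.2 CPM in vehicle gMDSC, and those of eosinophils, mast cells and basophils at 15.5 to 21.9 CPM in CBPi gMDSC against 52.7 to 86.8 CPM in vehicle gMDSC. Of the 6 genes in this last list, Siglecf alone was tested, and it fell. Prg2, Epx and Mcpt8 were at 0 in every CBPi gMDSC library, so the sum does not stand for all 3 cell types. Neutrophil sums overlapped in gMDSC, at 7073 to 13495 CPM under CBPi and 8815 to 34967 CPM in vehicle, and in mMDSC they were at 203 to 286 CPM under CBPi against 323 to 370.0 CPM in vehicle, without overlap. Of the single neutrophil markers, Il1f9 and Cxcr2 fell in gMDSC, 2 of 8 tested (list median -0.93), and Mmp8 fell in mMDSC, 1 of 6. None rose in either. Monocyte sums were at 4481 to 5747 CPM in CBPi mMDSC against 6149 to 7309 CPM in vehicle mMDSC, again lower under CBPi. In gMDSC they overlapped, at 1825 to 2463 CPM under CBPi and 1827 to 3683 CPM in vehicle. Of 8 monocyte markers tested in gMDSC, 2 rose (Vcan and F13a1) and 3 fell (Ccr2, Ly6c2 and Ly6c1). The response of F13a1 to CBPi was also higher in gMDSC than in mMDSC (adjusted p under 0.05 in the test of the difference). The sort gate genes summed to 2695 to 3054 CPM in CBPi mMDSC against 4147 to 4562 CPM in vehicle mMDSC, where Ly6c1, Ly6c2, Adgre1 and Ptprc fell. Erythroid and platelet markers went the other way, at 81.4 to 261 CPM in CBPi mMDSC against 25.0 to 52.2 CPM in vehicle mMDSC, and of the 3 tested the platelet gene Pf4 rose (137 ± 73.7 CPM under CBPi against 38.0 ± 9.71 CPM in vehicle). In bulk RNA, fewer cells of a type and less RNA per cell cannot be told apart, and the part of these markers in any result below was not tested. Markers of adipocytes, which also express Lpl, Cd36, Pparg and Plin2, summed to at most 3.53 CPM in any library, and Lep, a defining one, was at 0 in all. Stroma and endothelium markers were present, at 159 to 428 CPM in CBPi gMDSC and 149 to 510 CPM in vehicle gMDSC. In mMDSC they were at 164 to 384 CPM under CBPi and 222 to 548 CPM in vehicle. None of these passed with CBPi, 0 of 8 tested in gMDSC and 0 of 9 in mMDSC, and their part in the levels of the 10 genes was not tested. Vehicle gMDSC 3 stood apart with the highest macrophage sum (21980.0 CPM) and the highest S100a9, a neutrophil alarmin (19673 CPM), and vehicle gMDSC 5 had little Ly6g, at 0.438 CPM where vehicle gMDSC 1 to 4 had 5.34 to 9.20 CPM. In CBPi gMDSC 6 to 10, Ly6g was also low, at 2.14, 0.916, 0.753, 0.532 and 0.529 CPM. All of these lay below vehicle gMDSC 1 to 4, though Ly6g did not pass in the CBPi comparison. Its part in the gMDSC results was not tested. Within CBPi gMDSC, libraries 6 and 7 had the lowest macrophage sums, at 6661 and 7995 CPM. Libraries 8 to 10 had 10611 to 12726 CPM. The S100a9 levels of libraries 6 and 7, at 4950 and 3101 CPM, were the highest of this group. Apoe, Nr1h3, Msr1 and Pparg were also lowest in libraries 6 and 7 of this group, and Plin2 and Abca1 highest. The part of this split in the gMDSC results was not tested. Calls of named genes that change without vehicle gMDSC 3 and 5 are given with that value, an alternative chosen after seeing the data.

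With CBPi, 6 of the 10 lipid genes passed in mMDSC and 2 in gMDSC. In mMDSC, Lpl and Abca1 rose, and Plin2, Pparg, Nr1h3 and Abcg1 fell. These were 2 higher and 4 lower of 10 tested (adjusted p under 0.05, edgeR's quasi-likelihood test), where, over 11912 genes, 3.02% were higher, 5.54% lower and 8.56% either. In gMDSC, Apoe and Cd36 fell and none rose, so that 0 of 10 were higher and 2 lower, where 4.18% of 11694 genes were higher, 5.52% lower and 9.71% either. An unadjusted p under 0.05 was reached by 9 of 10 genes in mMDSC, where 2664 of all 11912 genes reached it, and by 6 of 10 in gMDSC, where 3030 of all 11694 did. The median log2 fold change over the 10 genes was -0.46 in mMDSC and -0.07 in gMDSC, against 0.01 and 0.00 over all genes. The groups did not overlap for 6 of the 10 genes in mMDSC, where 9.76% of all genes did not overlap, and for 1 of 10 in gMDSC, where the share was 12.2%. Here and below, a count beside its share over all genes is a description and no test of the 10 as a set, since they were chosen with earlier results known. In the text, a log2 fold change is followed by its standard error and by the p-value adjusted over all genes tested.

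**Figure D2:**
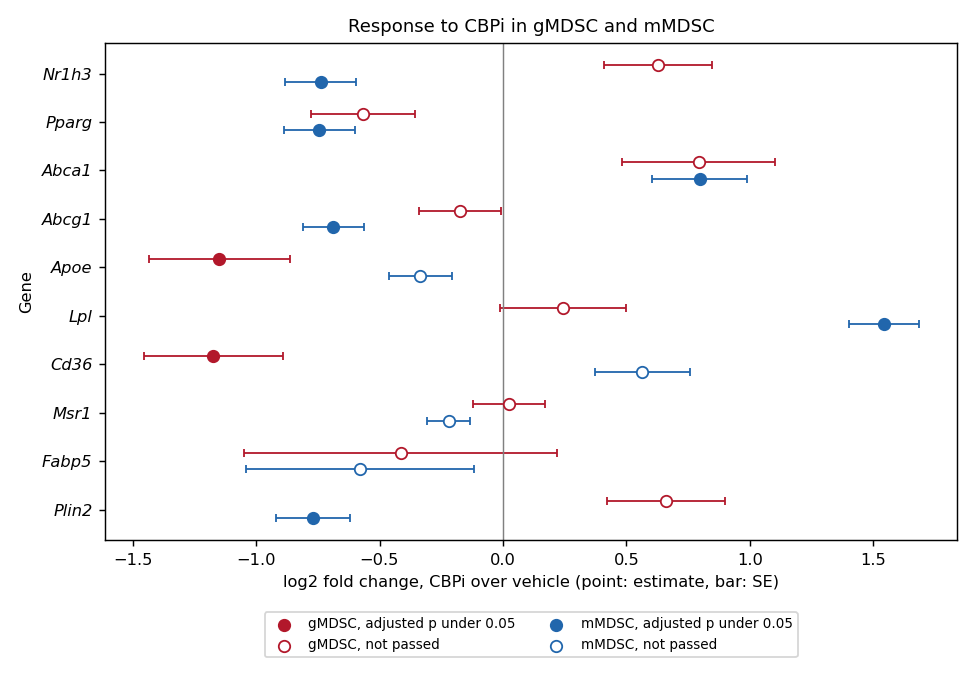
Log2 fold change of CBPi over vehicle (x axis) with its standard error (bars) for each gene in gMDSC and mMDSC (5 against 5 libraries each). Filled points passed an adjusted p of 0.05: 6 genes in mMDSC, with Lpl highest at 1.54, and 2 in gMDSC, Apoe at -1.15 and Cd36 at -1.17.

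The receptor genes Nr1h3 and Pparg both fell with CBPi in mMDSC, and in gMDSC neither passed. Nr1h3 (Entrez 22259, chromosome 2, 91184061 to 91202829 of GRCm38) was at 96.6, 97.1, 90.4, 97.3 and 101 CPM in CBPi mMDSC 6 to 10, against 224, 156, 127, 149 and 143 CPM in vehicle mMDSC 1 to 5. Every CBPi mMDSC library was below every vehicle mMDSC library, and the 5 CBPi libraries lay within a narrow band. The log2 fold change was -0.74 ± 0.14 (adjusted p = 0.00684). In gMDSC it was at 27.2, 35.1, 55.5, 57.0 and 51.0 CPM under CBPi, against 35.0, 30.4, 28.8, 28.0 and 28.0 CPM in vehicle. Here 4 CBPi libraries were above all vehicle libraries, CBPi gMDSC 7 only just, and CBPi gMDSC 6 was below them. The value of 0.63 ± 0.22 did not pass (adjusted p = 0.0883). Without CBPi gMDSC 6 the value was 0.77 and passed (adjusted p = 0.0364), and DESeq2 passed it with all libraries (adjusted p = 0.0432). Nr1h3 overlaps Acp2 and the small RNA gene Gm23390, and since the use of strand in counting is not given, reads from the shared stretch are uncertain.

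Pparg (Entrez 19016, chromosome 6, 115360879 to 115490404) was at 31.2, 23.7, 24.0, 29.5 and 33.8 CPM in CBPi mMDSC, against 50.6, 48.3, 41.4, 54.4 and 42.0 CPM in vehicle mMDSC. All 5 CBPi libraries lay below all 5 vehicle libraries, and the log2 fold change was -0.74 ± 0.14 (adjusted p = 0.00652). In gMDSC it was at 14.6, 12.7, 22.1, 18.5 and 15.3 CPM under CBPi, against 24.6, 21.2, 25.3, 29.4 and 26.1 CPM in vehicle. Only CBPi gMDSC 8 reached into the vehicle range, yet the value of -0.57 ± 0.21 missed the threshold (adjusted p = 0.108). DESeq2 passed it at an adjusted p of 0.0462. The response in gMDSC minus that in mMDSC was 0.13 ± 0.23 and did not pass (adjusted p = 0.888).

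Of the efflux genes, the transporter genes went opposite ways in mMDSC. Abca1 (Entrez 11303, chromosome 4, 53030789 to 53159988), whose transporter loads cholesterol onto lipid-poor apolipoproteins, was at 65.1, 92.7, 84.6, 62.4 and 75.2 CPM in CBPi mMDSC, against 46.9, 30.0, 51.5, 33.2 and 55.8 CPM in vehicle mMDSC. The lowest CBPi library was above the highest vehicle library, and Abca1 rose by 0.80 ± 0.19 (adjusted p = 0.0215), a fold of 1.74. The call ended without CBPi mMDSC 7 (adjusted p = 0.0534) and in 1 fit over all 20 libraries (adjusted p = 0.0945). Abcg1 (Entrez 11307, chromosome 17, 31057694 to 31117984), whose transporter passes cholesterol to mature lipoprotein particles, was at 67.7, 92.9, 80.1, 81.5 and 102 CPM in CBPi mMDSC. In vehicle mMDSC it was at 129, 142, 128, 134 and 146 CPM, without overlap, and the change of -0.69 ± 0.12 passed (adjusted p = 0.00398).

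In gMDSC, Abca1 was at 238, 236, 178, 112 and 184 CPM under CBPi, against 83.7, 109, 49.2, 162 and 156 CPM in vehicle. CBPi gMDSC 9 lay inside the vehicle range and the other 4 CBPi libraries above it. The value of 0.79 ± 0.31 was near that of mMDSC, with a wider standard error, and did not pass (adjusted p = 0.125). Abcg1 was at 113, 135, 101, 124 and 122 CPM in CBPi gMDSC, against 141, 161, 108, 113 and 164 CPM in vehicle gMDSC. The groups overlapped, and -0.17 ± 0.17 did not pass (adjusted p = 0.555).

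The pair was also set against each other within a library, on the RPKM scale. Abca1 over Abcg1 was 0.468 ± 0.132 in CBPi gMDSC and 0.239 ± 0.112 in vehicle gMDSC (mean ± SD, n = 5 each). In mMDSC it was 0.263 ± 0.0419 under CBPi and 0.0936 ± 0.0251 in vehicle, with ranges of 0.214 to 0.308 and 0.0614 to 0.117 that did not overlap. The ratio is a description and was not tested, and Abcg1 remained above Abca1 in all 20 libraries.

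**Figure D3:**
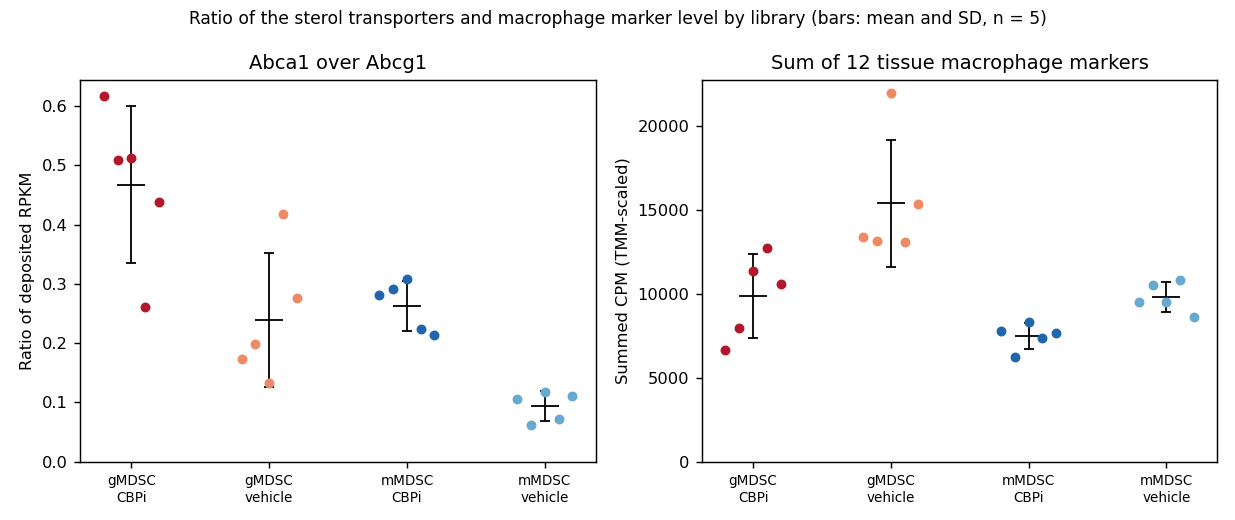
Left, the ratio of Abca1 to Abcg1 on the deposited RPKM scale in each library, and right, the summed CPM of 12 tissue macrophage markers, by group (points: libraries, bars: mean and SD, n = 5, both axes from 0). The ratio is higher under CBPi in mMDSC without overlap (0.214 to 0.308 against 0.0614 to 0.117), and the marker sum is lower under CBPi without overlap in both cell types.

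Apoe (Entrez 11816, chromosome 7, 19696244 to 19701310), the apolipoprotein that macrophages secrete and that accepts cholesterol from ABCA1, made up 0.698% to 4.14% of all counts of a library. It was at 9453, 10582, 15981, 18987 and 17424 CPM in CBPi gMDSC, against 20623, 26257, 55700.3, 29154 and 33024 CPM in vehicle gMDSC. All CBPi libraries were below all vehicle libraries, and Apoe fell by 1.15 ± 0.29 on the log2 scale (adjusted p = 0.0242), a fold of 0.451. The call ended without CBPi gMDSC 6 or CBPi gMDSC 7, and without vehicle gMDSC 3 and 5 the value was -0.76 (adjusted p = 0.0752). The summed macrophage markers were lower under CBPi too. Apoe over that sum had a median of 1.42 (range 1.32 to 1.64) in CBPi gMDSC and of 2.15 (1.54 to 2.53) in vehicle gMDSC. By the medians Apoe thus fell more than the markers, though the ranges of the ratio overlapped. In mMDSC, Apoe was at 14363, 12652, 13985, 15951 and 16110.1 CPM under CBPi, against 12853, 21507, 19251, 21040.0 and 17037 CPM in vehicle. Vehicle mMDSC 1 lay among the CBPi libraries, and -0.34 ± 0.13 did not pass (adjusted p = 0.134). Without vehicle mMDSC 1 the value was -0.44 and passed (adjusted p = 0.0125). Its ratio to the macrophage markers had a median of 2.03 (1.67 to 2.16) in CBPi mMDSC and of 1.98 (1.35 to 2.04) in vehicle mMDSC.

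Of the uptake genes, Lpl rose in mMDSC, Cd36 fell in gMDSC and Msr1 passed in neither. Lpl (Entrez 16956, chromosome 8, 68880555 to 68906932) was at 98.8, 90.7, 135, 111 and 102 CPM in CBPi mMDSC, against 45.1, 36.1, 31.4, 32.9 and 37.4 CPM in vehicle mMDSC. The lowest CBPi library was at 2.01 times the highest vehicle library. Lpl rose by 1.54 ± 0.14 (adjusted p = 4.01e-05), a fold of 2.91 and the largest change among the 10 genes in either CBPi comparison. In gMDSC it was at 51.9, 51.4, 76.8, 50.1 and 39.0 CPM under CBPi, against 36.3, 46.1, 34.6, 39.0 and 76.0 CPM in vehicle. Vehicle gMDSC 5 was near the highest CBPi library and CBPi gMDSC 10 lay below vehicle gMDSC 2. The groups thus overlapped, and 0.24 ± 0.26 did not pass (adjusted p = 0.593).

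Cd36 (Entrez 12491, chromosome 5, 17781690 to 17888959), a scavenger receptor for oxidised lipoproteins and long-chain fatty acids, was at 13.3, 13.8, 19.5, 10.2 and 14.5 CPM in CBPi gMDSC, against 53.1, 25.4, 18.4, 32.9 and 36.5 CPM in vehicle gMDSC. CBPi gMDSC 8 was just above vehicle gMDSC 3 and otherwise the groups were apart. Cd36 fell by 1.17 ± 0.28 on the log2 scale (adjusted p = 0.0208), a fold of 0.444, and the call ended without CBPi gMDSC 6, CBPi gMDSC 7 or vehicle gMDSC 1 (highest adjusted p of these 0.0567). In mMDSC it was at 24.8, 29.2, 34.7, 25.3 and 42.5 CPM under CBPi, against 25.8, 16.0, 18.5, 21.7 and 23.1 CPM in vehicle. Of the vehicle libraries, mMDSC 1 alone reached the CBPi range, and 0.56 ± 0.19 did not pass (adjusted p = 0.0929), while DESeq2 passed it (adjusted p = 0.0424).

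Msr1 (Entrez 20288, chromosome 8, 39543232 to 39642750), the class A scavenger receptor of modified lipoproteins, was at 696, 604, 568, 613 and 605 CPM in CBPi mMDSC, against 701, 693, 764, 733 and 684 CPM in vehicle mMDSC. CBPi mMDSC 6 alone lay within the vehicle range, and -0.22 ± 0.09 did not pass (adjusted p = 0.152). In gMDSC it was at 215, 267, 309, 305 and 298 CPM under CBPi, against 282, 286, 263, 268 and 307 CPM in vehicle. Its value of 0.02 ± 0.14 (adjusted p = 0.939) was the smallest of the 10 in this comparison.

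For storage, Plin2 (Entrez 11520, chromosome 4, 86626910 to 86670217) was at 506, 638, 396, 632 and 608 CPM in CBPi mMDSC, against 791, 920.2, 1004, 865 and 1138 CPM in vehicle mMDSC. The groups did not overlap, and Plin2 fell by 0.77 ± 0.15 on the log2 scale (adjusted p = 0.00658), a fold of 0.586. In gMDSC it was at 1896, 1291, 793, 1029 and 721 CPM under CBPi, against 817, 614, 779, 677 and 835 CPM in vehicle. CBPi gMDSC 6, 7 and 9 were above every vehicle library and the other 2 CBPi libraries among them. The value of 0.66 ± 0.24 did not pass (adjusted p = 0.102), while DESeq2 passed it (adjusted p = 0.0473). Plin2 overlaps the transcribed pseudogene Gm12551, so reads from the shared stretch are uncertain.

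Fabp5 (Entrez 16592, chromosome 3, 10012585 to 10016610), whose protein carries fatty acids within the cell, was low throughout, with 12 to 54 counts in a library. It was at 0.971, 1.40, 2.11, 2.18 and 0.913 CPM in CBPi gMDSC, against 2.90, 1.01, 4.86, 1.06 and 0.701 CPM in vehicle gMDSC. In mMDSC it was at 1.76, 0.729, 2.36, 1.18 and 0.745 CPM under CBPi, against 1.18, 1.94, 2.76, 2.67 and 1.51 CPM in vehicle. The groups overlapped in both cell types, and neither -0.41 ± 0.63 in gMDSC (adjusted p = 0.725) nor -0.58 ± 0.46 in mMDSC (adjusted p = 0.506) passed. The annotation holds 5 processed pseudogenes at least 90% identical to the Fabp5 transcript over at least 300 bases, the nearest at 98.3% (Gm6166), so its counts are uncertain.

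Whether a gene answered CBPi differently in the cell types was tested directly, as the response in gMDSC minus that in mMDSC over all 20 libraries. Cd36 and Lpl responded lower in gMDSC, and Nr1h3 and Plin2 higher. These were 2 higher and 2 lower of 10, where 0.497% of 12688 genes were higher, 0.229% lower and 0.725% either. The difference was -1.80 ± 0.35 for Cd36 (adjusted p = 0.0175) and -1.34 ± 0.29 for Lpl (adjusted p = 0.0354). It was 1.32 ± 0.26 for Nr1h3 (adjusted p = 0.0175) and 1.39 ± 0.30 for Plin2 (adjusted p = 0.0323). For Cd36, Nr1h3 and Plin2 the estimates of the cell types had opposite signs, with the gMDSC estimate alone passing for Cd36 and the mMDSC estimate alone for the other two, while for Lpl both were above 0. Without vehicle gMDSC 3 and 5 all 4 still passed, at -1.95 for Cd36, -1.14 for Lpl, 1.27 for Nr1h3 and 1.47 for Plin2. The Lpl call ended without any of 12 of the 20 libraries (adjusted p up to 0.0931), among them 4 of the 5 vehicle mMDSC, 4 of the 5 CBPi mMDSC and 4 of the 5 CBPi gMDSC libraries, and the Plin2 call ended without CBPi gMDSC 7 or vehicle gMDSC 4 (adjusted p up to 0.0704). For Abca1 the difference was -0.05 ± 0.38 (adjusted p = 0.975), for Abcg1 0.47 ± 0.20 (0.351), for Apoe -0.86 ± 0.32 (0.285), for Msr1 0.20 ± 0.15 (0.674) and for Fabp5 0.10 ± 0.78 (0.973), with adjusted p-values in parentheses. The median over the 10 genes was 0.12, against -0.04 over all genes.

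The cell types themselves differed in 8 of the 10 genes under CBPi and in 5 in vehicle. In vehicle, Abca1 and Apoe were higher in gMDSC, and Nr1h3, Msr1 and Pparg were lower, 2 and 3 of 10, where 13.6% of 11576 genes were higher, 8.08% lower and 21.7% either. Under CBPi, Abca1, Plin2 and Abcg1 were higher and Msr1, Cd36, Nr1h3, Lpl and Pparg lower, 3 and 5 of 10, where 20.1% of 11895 genes were higher, 19.1% lower and 39.2% either. The groups did not overlap for 3 genes in vehicle and for 7 under CBPi, where 20.2% and 29.9% of all genes did not. The median over the 10 genes was 0.05 in vehicle and -0.34 under CBPi, against -0.06 and -0.05 over all genes. Each of these comparisons shares its libraries with the CBPi comparisons above, and their values stand side by side without a test of likeness.

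**Figure D4:**
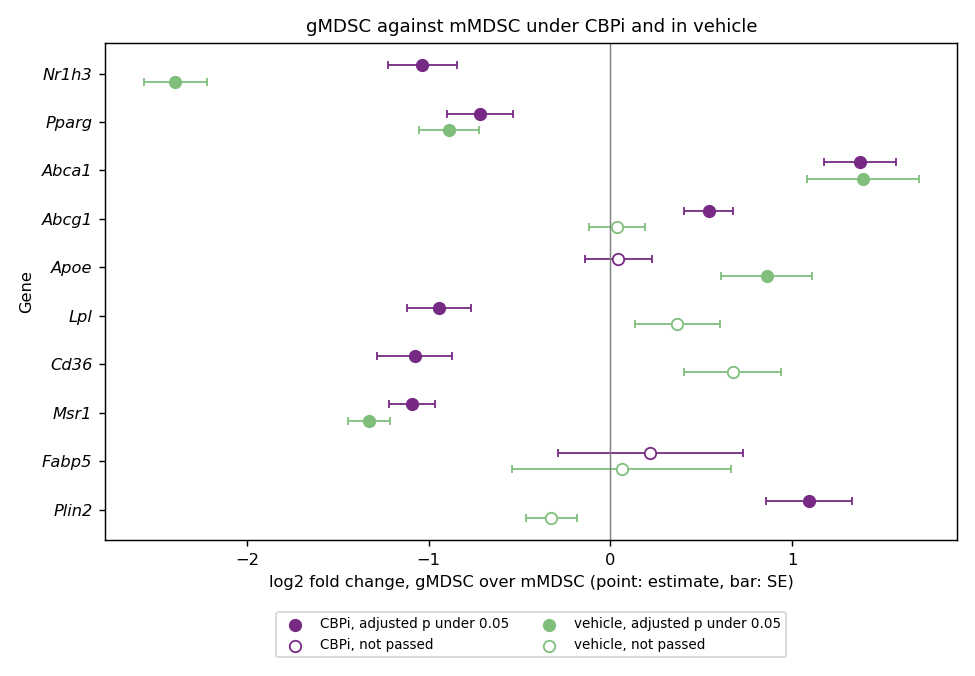
Log2 fold change of gMDSC over mMDSC (x axis) with its standard error (bars) for each gene under CBPi and in vehicle (5 against 5 libraries each). Filled points passed an adjusted p of 0.05: 8 genes under CBPi and 5 in vehicle, with Nr1h3 lowest in vehicle at -2.39 and Abca1 near 1.4 under both.

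In vehicle, Nr1h3 had the largest difference between cell types of the 10 genes, while under CBPi those of Abca1, Plin2, Msr1 and Cd36 were larger. It averaged 45.2 ± 13.3 CPM in CBPi gMDSC and 96.4 ± 3.68 CPM in CBPi mMDSC, a log2 fold change of -1.04 ± 0.19 (adjusted p = 8.19e-04). In vehicle it averaged 30.0 ± 2.95 CPM in gMDSC and 159.8 ± 37.6 CPM in mMDSC, a log2 fold change of -2.39 ± 0.17 (adjusted p = 9.03e-07). Pparg was lower in gMDSC under CBPi (-0.72 ± 0.18, adjusted p = 0.00738) and in vehicle (-0.89 ± 0.16, adjusted p = 0.00166). Msr1 averaged 279 ± 39.4 CPM in CBPi gMDSC and 617 ± 47.5 CPM in CBPi mMDSC (-1.09 ± 0.13, adjusted p = 2.20e-05), and 281 ± 17.5 CPM in vehicle gMDSC and 715 ± 33.0 CPM in vehicle mMDSC (-1.33 ± 0.12, adjusted p = 3.98e-06). These 3 genes separated the cell types without overlap under CBPi and in vehicle.

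Abca1 went the other way, with 1.37 ± 0.20 under CBPi (adjusted p = 1.31e-04) and 1.39 ± 0.31 in vehicle (adjusted p = 0.00589). It averaged 189.6 ± 52.0 CPM in CBPi gMDSC and 76.0 ± 12.8 CPM in CBPi mMDSC, against means of 112 ± 47.8 CPM in vehicle gMDSC and 43.5 ± 11.4 CPM in vehicle mMDSC. Abcg1 was higher in gMDSC under CBPi by 0.54 ± 0.13 (adjusted p = 0.00634), with means of 119 and 84.9 CPM, and in vehicle, at 138 and 136 CPM, its value was 0.04 ± 0.16 (adjusted p = 0.901). Apoe was higher in gMDSC in vehicle, by 0.86 ± 0.25 (adjusted p = 0.0266), and under CBPi its means of 14485 and 14612 CPM gave 0.04 ± 0.18 (adjusted p = 0.879). The vehicle call ended without vehicle mMDSC 1, 3 or 5, and without vehicle gMDSC 3 and 5 the value was 0.47 (adjusted p = 0.0735). Beside it, 4 of 11 macrophage markers were higher in vehicle gMDSC, the complement genes C1qa, C1qb and C1qc by 0.76, 0.82 and 0.83 and the lipid receptor gene Trem2 by 1.33, and 2 were lower, and their part in the value was not tested.

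Lpl, Cd36 and Plin2 differed between the cell types under CBPi and did not pass in vehicle. Lpl averaged 53.8 ± 13.9 CPM in CBPi gMDSC and 108 ± 16.9 CPM in CBPi mMDSC (-0.94 ± 0.18, adjusted p = 9.18e-04), and its value in vehicle was 0.37 ± 0.23 (adjusted p = 0.311). Cd36 averaged 14.3 ± 3.37 CPM in CBPi gMDSC and 31.3 ± 7.43 CPM in CBPi mMDSC (-1.08 ± 0.21, adjusted p = 0.00122). In vehicle its value was 0.67 ± 0.27 (adjusted p = 0.0970), and it passed without vehicle gMDSC 3 (adjusted p = 0.0185) and without vehicle gMDSC 3 and 5 (0.83, adjusted p = 0.0367). Plin2 averaged 1146 ± 475 CPM in CBPi gMDSC and 556 ± 104 CPM in CBPi mMDSC (1.09 ± 0.24, adjusted p = 0.00287), and its value in vehicle was -0.33 ± 0.14 (adjusted p = 0.126). Fabp5 passed in neither, at 0.22 ± 0.51 under CBPi (adjusted p = 0.776) and 0.06 ± 0.60 in vehicle (adjusted p = 0.959).

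Beyond the 10, genes of the same pathways were counted from 8 lists, which hold some of the 10 among their members, and the shares and medians over all genes given above stand beside each count. In CBPi mMDSC, 2 of 16 tested LXR target genes rose, Lpl and Abca1, and 6 fell (median log2 fold change -0.24). Among those that fell were the apolipoprotein genes Apoc2 (23.3 ± 4.73 CPM under CBPi against 96.3 ± 28.7 CPM in vehicle, -2.05 ± 0.22, adjusted p = 1.35e-04) and Apoc1 (-1.71 ± 0.46, adjusted p = 0.0358, lost without any of 8 single libraries). In CBPi gMDSC none of 15 LXR target genes rose and 3 fell (median -0.03), Apoc2 by 1.96, the small GTPase gene Arl4c by 1.30 and Apoe. The Arl4c call ended without CBPi gMDSC 7, CBPi gMDSC 8 or vehicle gMDSC 2. Scavenger and lipoprotein receptor genes fell in CBPi mMDSC in 6 of 13 and rose in none (median -0.55): the lipoprotein receptor gene Lrp8 (-1.28), the endothelial and macrophage receptor gene Stab1 (-1.04), the oxidised LDL receptor gene Olr1 (-0.97), Cxcl16, Cd68 and Scarb2. In CBPi gMDSC 1 of 13 rose, Olr1 (23.5 ± 6.38 against 12.2 ± 3.19 CPM, 0.98 ± 0.27, adjusted p = 0.0355), and 2 fell, Cd36 and Cxcl16 (-0.69), with a median of 0.02. The response of Olr1 differed between the cell types by 1.90 (adjusted p = 0.0192, lost without CBPi gMDSC 7), while its call in gMDSC was lost without any of 7 single libraries and that in mMDSC without any of 8, and that of Cxcl16 in gMDSC without any of 8. Without vehicle gMDSC 3 and 5 the gMDSC values were 0.78 for Olr1 (adjusted p = 0.0783) and -0.53 for Cxcl16 (adjusted p = 0.117).

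Of the droplet and triglyceride synthesis genes, 4 of 17 rose and 1 fell in CBPi gMDSC (median 0.20), and 1 of 16 rose and 1 fell in CBPi mMDSC (median 0.00). Hilpda, whose protein sits on droplets and inhibits the lipase ATGL, rose in both, at 533 ± 220.3 CPM in CBPi gMDSC against 43.5 ± 39.0 CPM in vehicle gMDSC (3.66 ± 0.53, adjusted p = 0.00126) and at 80.0 ± 9.78 CPM in CBPi mMDSC against 31.9 ± 8.02 CPM in vehicle mMDSC (1.32 ± 0.17, adjusted p = 5.36e-04). The mMDSC calls of Hilpda and Lrp8 ended in 1 fit over all 20 libraries. In gMDSC the glycerol phosphate acyltransferase gene Gpat3 rose by 1.56 ± 0.31 (adjusted p = 0.00772) and the cholesterol esterifying gene Soat1 by 0.81 ± 0.18 (adjusted p = 0.0152), while its homologue Soat2 fell. The phosphatidate phosphatase gene Lpin1 rose there by 3.14, at means of 3.16 CPM under CBPi and 0.338 CPM in vehicle, a call lost without any of 7 single libraries. Of all pathway list genes outside the 10, Olr1 and Soat1 alone passed in the test of the difference between responses. The response of Soat1 differed between the cell types by 1.03 (adjusted p = 0.0427, lost without any of 11 of the 20 libraries), and was 1.02 without vehicle gMDSC 3 and 5 (adjusted p = 0.0674).

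In the remaining lists, PPAR target genes were, with CBPi, 2 higher (Lpl and the dehydrogenase gene Acadl) and 2 lower (Olr1 and Plin2) of 11 in mMDSC, and 1 higher (Olr1) and 1 lower (Cd36) of 11 in gMDSC. Fatty acid binding, transport and activation genes were 0 of 10 in mMDSC and, with Cd36, 1 lower of 10 in gMDSC. Lipolysis genes were 1 higher of 11 (Lpl) in mMDSC and 0 of 12 in gMDSC, and efflux and apolipoprotein genes were 1 higher and 3 lower of 11 in mMDSC and 2 lower of 10 in gMDSC. Of the nuclear receptor and coregulator genes, Pparg and Nr1h3 fell in mMDSC and none of 14 passed in gMDSC. The genes of the drug's targets did not pass: Crebbp was at -0.04 ± 0.24 in gMDSC and 0.20 ± 0.21 in mMDSC, and Ep300 at 0.29 ± 0.17 and 0.16 ± 0.16.

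Between the cell types, the lipid droplet list, of the 8 lists, held the largest differences. Under CBPi, gMDSC had 10 of its 17 genes higher and 3 lower (median 1.17), and in vehicle 6 of 16 were higher and 1 lower (median 0.37). G0s2, another inhibitor of the lipase ATGL, averaged 2116 ± 875 CPM in CBPi gMDSC and 3.28 ± 1.48 CPM in CBPi mMDSC, and 3317 ± 1999 CPM in vehicle gMDSC and 5.03 ± 2.14 CPM in vehicle mMDSC. Its log2 fold change was 9.39 ± 0.41 under CBPi and 9.36 ± 0.55 in vehicle. Soat2 was higher by 3.26 and 3.39, and the fatty acid transporter gene Slc27a4 by 2.00 and 2.04. Plin5, a perilipin of oxidative tissues, averaged 3.34 ± 1.62 CPM in vehicle gMDSC and was at 0 in all vehicle mMDSC libraries. Scavenger and lipoprotein receptor genes were 2 higher and 7 lower of 13 under CBPi (median -0.91) and 1 higher and 8 lower of 13 in vehicle (median -0.98), with the lipoprotein receptor gene Lrp1 at -1.28 and -1.46. LXR target genes were 3 higher and 8 lower of 15 under CBPi and 3 higher and 7 lower of 15 in vehicle, with Apoc2 at -1.42 and -1.51. Of the nuclear receptor and coregulator genes, 5 of 14 were higher and 3 lower under CBPi and 3 higher and 3 lower in vehicle. Crebbp was among the higher ones, at 0.67 under CBPi and 0.91 in vehicle, and so was Ep300, at 0.64 and 0.53. The vehicle call of Crebbp ended without any of 7 single libraries and that of Ep300 without any of 8 or without vehicle gMDSC 3 and 5 together (0.55, adjusted p = 0.0732), and the call of Crebbp under CBPi ended in 1 fit over all 20 libraries. Efflux and apolipoprotein genes were 4 higher and 4 lower of 11 under CBPi and of 10 in vehicle, with the apolipoprotein B receptor gene Apobr at 1.29 and 1.44. Lipolysis genes were 2 higher and 2 lower of 12 under CBPi and 2 higher and 1 lower in vehicle, with the lipase gene Pnpla2, which makes ATGL, at 1.01 and 1.24.

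The genes whose pattern over the 20 libraries lay nearest to each member were found by the root-mean-square difference of log2 CPM after each gene's own mean was subtracted, a description with no test. Apoe was nearest to Trem2 (0.241) and Mzt2 (0.243), against a spread of 0.576 of Apoe itself about its mean. Msr1 was nearest to Tmem106a (0.158) and Anxa4 (0.184), Pparg to Ccdc86 (0.201) and Tmem51 (0.214), and Abcg1 to Pip4k2a (0.216) and Arhgap30 (0.220). Plin2 was nearest to Atp6v1c1 (0.292) and Mdm2 (0.292), Abca1 to Ulk1 (0.338), and Nr1h3 to Camkk2 (0.359) and Slc30a1 (0.375). Lpl was nearest to Ak3 (0.390) and Lrrc45 (0.426), and Cd36 to Txndc15 (0.432) and Tmem175 (0.454), the widest distances of these 9 members. The members' own spreads differed too, at 0.972 for Nr1h3, 0.653 for Lpl, 0.590 for Cd36 and 0.335 for Abcg1. The order of the distances is thus no order of likeness. No member was among the 2 nearest genes of another member.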

How the data were processed

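Each library's deposited table held, per gene, a count of reads as a whole number, a width and an RPKM value, all made by the authors; reads were aligned with GSNAP to GRCm38 per the submitters' processing notes, with counter, annotation and strand setting not given in the sources used here. The counts were 50.2% to 62.4% of the library total behind the authors' RPKM values. Tests used edgeR 4.0.16 (R 4.3.3) with quasi-likelihood fits (TMM, filterByExpr with a minimum count of 10 and minimum total of 15, Benjamini-Hochberg adjustment over all genes tested, threshold 0.05), on the groups compared, or on all 20 libraries for the difference of responses. All 10 genes passed the filter in every comparison. A standard error is the log2 fold change divided by the square root of F. Displayed CPM use TMM over 20 libraries. Fits were tested on simulated data. DESeq2 1.42.0, limma-voom 3.58.1, other scaling, no filter, left-out libraries and a replicate block were alternatives.

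Members and lists were chosen with earlier results of these data known. The text names the 10 genes and, per list and comparison, up to 3 genes that passed with the largest change. Other list genes were named after their values were seen. Some genes that these rules would name are not reported here. Near-copies were sought with blastn 2.17.0.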

Additional observations from a re-analysis of the deposited data

Results flagged for a closer look

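In 4 of the 10 genes the response to CBPi differed between the cell types by the test of the difference itself. Over all 12688 genes tested, 0.725% differed. The values, gMDSC minus mMDSC on the log2 scale, were -1.34 for Lpl, -1.80 for Cd36, 1.39 for Plin2 and 1.32 for Nr1h3. The Lpl call ended without any of 12 of the 20 libraries and the Plin2 call without CBPi gMDSC 7 or vehicle gMDSC 4. Lpl in vehicle gMDSC had a sample far from the others, vehicle gMDSC 5 at 76.0 CPM, where the nearest of the other 4 libraries was at 46.1 CPM. This was the only such sample among 40 gene and group combinations examined, and chance flags about 1 in 20 groups.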

How the results depend on the processing

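Over 900 values of the 10 genes under the alternatives, 826 kept their direction and their side of the threshold, 27 no longer passed, 11 newly passed and 36 changed sign, and those that changed sign had not passed at the start. The causes of these changes were not tested. With DESeq2 the genes higher in mMDSC under CBPi were 678, those higher and lower in gMDSC 866 and 1060, and those for the difference of responses 184 and 93, and 2 of the 10 genes were then higher in gMDSC. With limma-voom 17 genes were lower for the difference of responses. In 1 fit over all 20 libraries the genes higher in mMDSC under CBPi were 165 with 1 of the 10, those higher and lower in gMDSC 872 and 1310 with 2 of the 10 higher, and those lower in vehicle gMDSC against mMDSC 1519. Without vehicle gMDSC 3 and 5, 1 of the 10 was lower in CBPi gMDSC.

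The replicate numbers are shared by gMDSC and mMDSC of a treatment, and whether a shared number marks the same mouse is not labelled. Residuals of same-numbered libraries correlated at -0.03 to 0.168 over 10 pairs, 2 of them over 0.1. Of the gMDSC libraries, 3 of 5 under CBPi and 0 of 5 in vehicle correlated best with their own number. These correlations, between different cell types with 5 libraries per group, cannot tell whether the samples were paired. A replicate block left 33 genes higher and 19 lower for the difference of responses, and 1 of the 10 higher, since Plin2 no longer passed (adjusted p = 0.0572), and it ended no other call of the 10 genes. Treatments share no numbers.

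Leaving out 1 library at a time, the genes higher in mMDSC under CBPi ranged from 221 to 448 and those of the 10 from 1 to 2. In gMDSC they ranged from 229 to 658 higher and 358 to 736 lower, and of the 10 from 0 to 1 higher and 0 to 2 lower. For the difference of responses they ranged from 23 to 85 higher and 10 to 32 lower, and of the 10 from 1 to 2 in each direction. In vehicle gMDSC against mMDSC 676 to 1521 were lower, and of the 10 from 1 to 3 higher.

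In gMDSC under CBPi, Fabp5 was 0.036 with limma-voom and -0.64 to 0.15 without 1 library, Msr1 -0.013 in the fit over 20 libraries and -0.014 to 0.11, and Crebbp 0.038 with limma-voom, 0.11 without vehicle gMDSC 3 and 5 and -0.16 to 0.21. For the difference of responses, Abca1 was -0.23 to 0.12 and Fabp5 -0.12 to 0.68. In vehicle gMDSC against mMDSC, Abcg1 was -0.043 to 0.10, and Fabp5 -0.33 with limma-voom, -0.27 without vehicle gMDSC 3 and 5, -0.24 with the block and -0.51 to 0.30. Under CBPi, Apoe was -0.0069 with limma-voom, -0.013 in the fit over 20 libraries, -0.0056 with the block and -0.068 to 0.16.

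Of the named list genes, 3 of 7 kept their call in every alternative in gMDSC, 2 of 6 in mMDSC, 0 of 2 for the difference, 12 of 15 between cell types in vehicle and 13 of 15 under CBPi.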
